A study of Mus musculus with 4 samples.

Results

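CX3CR1high macrophages of the mouse large intestine were compared with CD11b+ cells that lacked CD11c, gene by gene, on 1 array of each population. Both populations came from the lamina propria, the connective tissue beneath the gut epithelium, of C57BL/6J mice, and the labels name no treatment or altered allele. The CX3CR1high macrophages were taken as CD11c+ CD11b+ cells with a high level of CX3CR1, the receptor for fractalkine. The CD11b+ cells were taken as CD11c- cells, with CX3CR1 not named. Age, sex, number of mice and pooling are not given in the sources used here. The series holds 4 arrays in all, the other two being CD11c+ CD11b+ CX3CR1- cells and CD11chigh CD11b- dendritic cells (DCs), and their values are given only to place a gene. Of 22690 probe sets, 20380 name exactly 1 gene and were used, and they were read as 12393 genes by 1 probe set each. Values are the linear signal intensities that the authors deposited, with a trimmed mean of 500 on both arrays compared. Paired signals are given with the CX3CR1high macrophages first.

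Monocytes leave the blood through the chemokine receptor CCR2, enter the colon wall throughout life and mature there into resident macrophages. On the way they are known to lose monocyte genes and to gain scavenger receptors, complement C1q, IL-10 and CX3CR1. Mature gut macrophages take up dying cells and bacteria, yet respond little to bacterial products.

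The CX3CR1high macrophages had more RNA of most listed genes of resident macrophages. Higher by 2-fold or more were 7 of 13 CCL chemokines and 8 of 22 genes listed under heme and iron. Over all genes with a ratio the share was 4.66%. The chemokine Ccl8 was 8.54-fold higher, the lectin Fcna 7.97-fold and the iron exporter Slc40a1 7.90-fold. The CD11b+ cells had more RNA of genes known from monocytes, with Chil3 16.6-fold and Ccr2 5.52-fold lower in the macrophages. S100a9, listed here with neutrophil genes, was 7.53-fold lower. Genes of antigen presentation and Toll-like receptors were mostly alike. Genes known from non-myeloid cells also differed, those of epithelium being higher in the macrophage array and those of fibroblasts lower.

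Each population had 1 array, so no replicate, test or standard error stands behind a ratio, and the small number of arrays limits its precision. Signals below 103, the median over the 4 arrays without control probe sets, were set to this floor. Where this touched 1 of the signals the ratio is only a bound, marked by the words at least, and where it touched both no ratio was taken. The arrays matched in median signal, 111 in each, and in the share of genes at or over the floor, 57.2% and 56.9%. They differed in RNA measures. The Gapdh control had a 3′ over 5′ signal ratio of 1.08 in the macrophages and 2.17 in the CD11b+ cells, and the Actb control 1.68 and 3.18, where a larger ratio is known from less intact RNA. All 18 probe sets of bacterial and phage RNA added at hybridisation were lower in the macrophage array, by a median of 0.84 on the log2 scale, as were all 24 probe sets of poly-A spikes, by a median of 1.04. The part of RNA quality and of array brightness in the gene ratios was not tested. Log2 ratios of probe sets for the same gene had an SD of 0.33 over 2173 genes, a spread that leaves out mice, sorts and hybridisations.

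The populations were alike in most genes. Of 7512 genes with a ratio, 89.5% lay within 2-fold, and the median log2 ratio was -0.02 with quartiles at -0.36 and 0.31. At the limit of 4-fold, 65 genes (0.865%) had the higher signal in the macrophages and 60 (0.799%) the lower. At the limit of 2-fold used for members of gene lists, 350 genes (4.66%) were higher and 438 (5.83%) lower. These shares are the background against which each list is read. Lists and their members were chosen with earlier results of these data known, so a list share beyond the background is description and not independent support. A gene with a ratio reached the floor in at least 1 array, so counts over members with a ratio leave out members that were low in both. Genes just inside the 4-fold limit were Mmp12 (4.05-fold) among the higher and Col6a2 (4.01-fold) among the lower ones, and just outside were Cd209g, at 411 against the floor, and Clec4e (3.98-fold lower). Genes called higher had 28 further probe sets with a ratio, of which 21 were also 2-fold or more higher and 0 as far lower. Genes called lower had 27, of which 20 were also 2-fold or more lower and 0 as far higher.

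**Figure D1:**
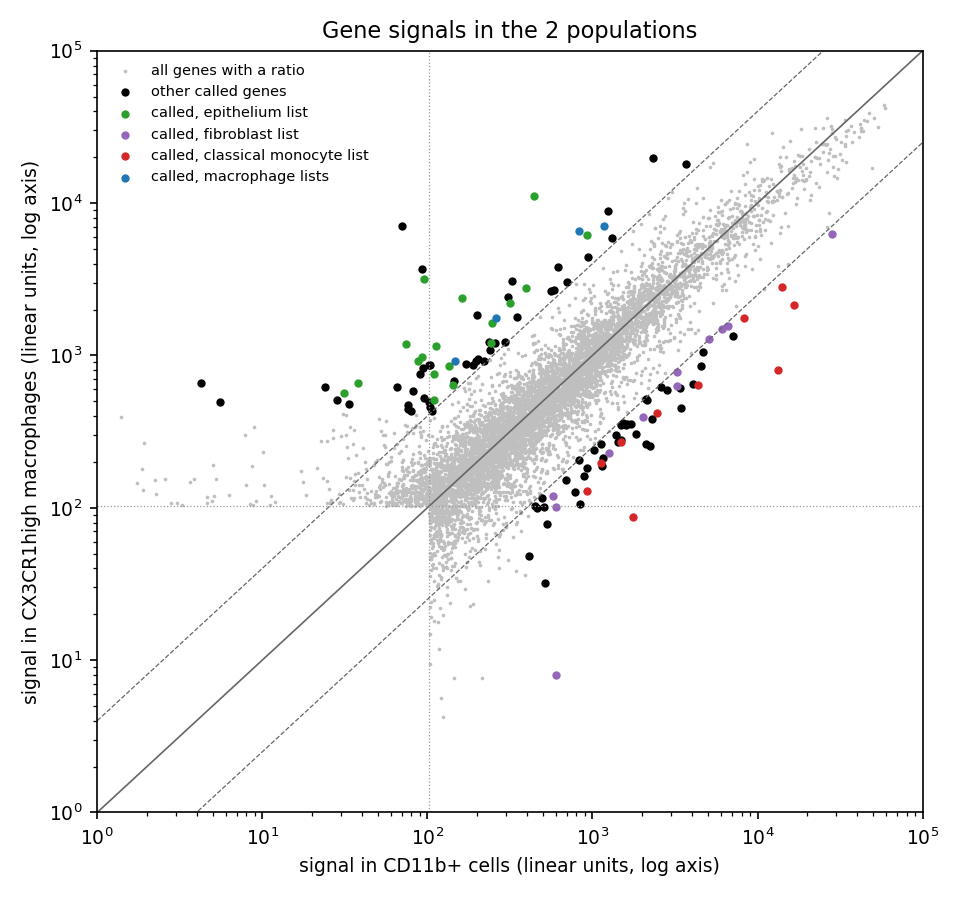
Signal of each of 7512 genes with a ratio in CD11b+ cells (x axis) and CX3CR1high macrophages (y axis), in linear units on log axes, 1 array each. The solid line marks equal signals, dashed lines 4-fold and dotted lines the floor of 103. Most genes lie near the solid line. The 65 genes called higher lie above the upper dashed line, and the 60 called lower lie below the lower one. Signals are plotted without the floor, so some uncalled genes with a signal under it also lie beyond these lines.

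The genes behind the sort were examined first. Cx3cr1 had signals of 1499 in the macrophages and 638 in the CD11b+ cells, with 291 in CX3CR1- cells and 65.2 in DCs, so it was 2.35-fold higher in the macrophages than in the CD11b+ cells but well over the floor in both. Adgre1, which encodes the macrophage antigen F4/80, stood at 8502 against 3559.6. Itgam, the gene of CD11b, was similar at 691 against 514. Itgax, the gene of CD11c, did not follow the gate, with 1826 against 1864, although the CD11b+ cells were taken as CD11c-negative. Csf1r, the receptor for the macrophage growth factor CSF1, was also alike at 32267 against 27758, as were the myeloid transcription factor gene Spi1 (2748 against 2878) and the lysozyme gene Lyz2 (35157 against 44238). Both populations carried RNA of these genes of the monocyte and macrophage lineage, and the labels do not call the CD11b+ cells monocytes. The sample titles are Mf for the CD11b+ cells and CX3CR1high Mf for the CX3CR1high macrophages, so both titles carry the same short form for macrophages. In this text the word macrophages, used alone for a population, means the CX3CR1high cells.

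Genes of resident macrophages were mostly higher in the CX3CR1high cells. Of 20 listed genes 18 had a probe set, and 11 of 17 members with a ratio lay at least 2-fold above the CD11b+ cells and 0 as far below. Their median log2 ratio was 1.23, against -0.02 over all genes. Cx3cr1, on whose product the cells were sorted, is among the 11 and sits at this median, so its ratio is not independent of the sort. Hpgds, the synthase of prostaglandin D, had the largest ratio of this group, 6.18-fold at 913 against 148. Cd163, the receptor for hemoglobin bound to haptoglobin, had signals of 6566, 1752, 718 and 13.6 in the macrophages, the CD11b+ cells, the CX3CR1- cells and the DCs, in that order. Mrc1, the mannose receptor, had 17169, 5178, 3436 and 97.8 in the same order and was 3.32-fold higher than in the CD11b+ cells. Both genes were lower in steps from the macrophages through the CD11b+ cells and CX3CR1- cells to the DCs. The tetraspanin Cd81 was 2.80-fold higher at 10571 against 3775, and Cd72, an inhibitory receptor known from B cells, 3.70-fold at 1791 against 484. The TAM receptor Mertk, which binds dying cells through bridging proteins, stood at 894 against 429.6. Tgfbr2, a TGF-beta receptor chain, was within 2-fold at 5605 against 3252, and so was the high-affinity IgG receptor gene Fcgr1 at 2989 against 2462. Maf was not over the floor in either array.

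A further set of macrophage genes, named here after Lyve1 and known from macrophages near vessels and nerves, were also higher. Of 20 listed genes 19 were measured, and 12 of 18 members with a ratio lay at least 2-fold above the CD11b+ cells and 0 as far below, with a median log2 ratio of 1.34. Fcna, a ficolin lectin of the complement system, had signals of 6577 in the macrophages and 826 in the CD11b+ cells, with 345 in CX3CR1- cells and 81.8 in DCs. Folr2, the folate receptor of macrophages, had 7079, 1183, 364 and 100.3 in the same order. In both genes the macrophage array was the highest and the DC array was under the floor. Lyve1, a receptor for hyaluronan, was 3.14-fold higher at 5416 against 1725, and a second Lyve1 probe set gave 1561 against 665. Cbr2, a carbonyl reductase, was 3.72-fold higher at 7276 against 1955, and Gas6, the bridging protein that links dying cells to Mertk, 2.32-fold at 5429 against 2336. Igf1, a growth factor, stood at 1699 against 673. Vsig4, a complement receptor of resident macrophages, was over the floor only in the macrophage array (300.1 against 32.1). Selenop (34931 against 33799.9), the carrier of selenium, and the chemokine Ccl24 (746 against 638) were within 2-fold.

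Genes of classical monocytes were the counterpart, with lower signals in the macrophages. Of 27 listed genes 23 were measured, and 0 of 22 members with a ratio lay at least 2-fold above the CD11b+ cells and 15 as far below. The median log2 ratio was -1.83, and all 22 ratios were below 0. Ccr2 had signals of 269 in the macrophages and 1482 in the CD11b+ cells, with 752 in CX3CR1- cells and 676 in DCs. Its other probe sets gave 119 against 417 and 50.2 against 262. Vcan, a proteoglycan of the matrix made by monocytes, was 5.70-fold lower at 197 against 1122. Fn1, fibronectin, stood at 1753 against 8235, and the monocyte gene Plac8 at 2804 against 14116. Listed fibroblast genes were lower as well, and the part of fibroblasts in the ratios of the matrix genes Vcan and Fn1 was not tested. F10, clotting factor X, was 7.22-fold lower at 129 against 929, and Ifitm6 5.86-fold at 421 against 2471. Slpi, an inhibitor of leukocyte proteases, stood at 636 against 4351, and Ms4a4c, a gene of circulating monocytes, at 692 against 2209.6. Each of these genes was over the floor in the macrophages. Ccl9 (10149 against 12172) and Lyz2 were within 2-fold. Markers of non-classical monocytes had 1 of 9 members 2-fold or more above and 4 as far below, with a median of -0.92. Adgre4 (426 against 1619), Pou2f2, Apoc2 and Itgal lay below, and Eno3, a muscle-type enolase, above. Ly6c1 and Ly6c2, whose products mark monocytes in flow cytometry, were not analysed here.

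**Figure D2:**
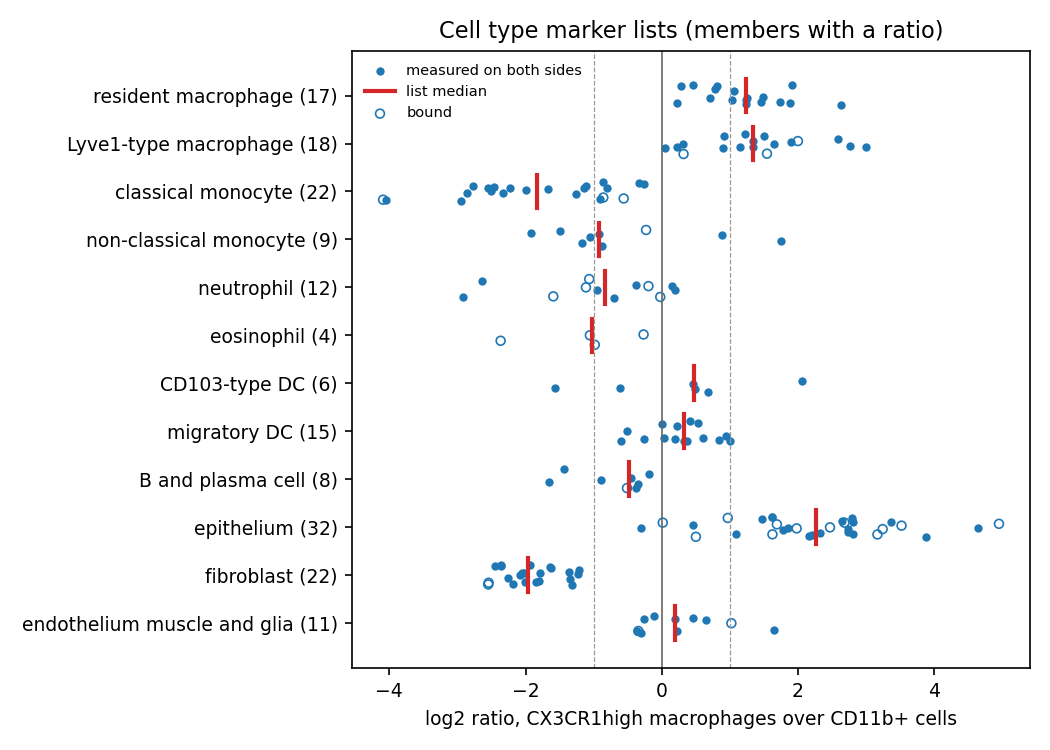
Log2 ratio of signals in CX3CR1high macrophages over CD11b+ cells for members of 12 cell type marker lists, with the number of members with a ratio in brackets. Filled points are measured on both sides, open points are bounds, red bars are list medians and dashed lines mark 2-fold. Macrophage and epithelium lists lie to the right, and monocyte and fibroblast lists to the left, with medians from -1.97 for fibroblasts to 2.26 for epithelium.

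Several of the most different genes encode small secreted or calcium-binding proteins made in large amounts by monocytes and neutrophils. Chil3, a chitinase-like protein known as Ym1, had the largest ratio measured on both sides among the lower genes, 16.6-fold. Its signals were 798 in the macrophages and 13237 in the CD11b+ cells, with 53.3 in CX3CR1- cells and 3.26 in DCs. S100a9 had 454, 3416, 44.5 and 26.7 in the same order, and its partner S100a8, with which it forms calprotectin, had 651, 4058, 24.1 and 28.6. All of them were over the floor only in the macrophages and the CD11b+ cells, and were highest in the CD11b+ cells. S100a4 differed in this, with 2153, 16540.2, 19758 and 11507 in the same order, so that the CX3CR1high macrophages were the lowest of the 4 populations. Hp, haptoglobin, was under the floor in the macrophages and at least 17.0-fold lower at 86.5 against 1753. Camp, Ltf and Ngp, which encode proteins of neutrophil granules, were under the floor in the macrophages and stood at 104, 118 and 222 in the CD11b+ cells. On the list of 18 neutrophil genes 0 of 12 members with a ratio lay at least 2-fold above the CD11b+ cells and 5 as far below, with a median log2 ratio of -0.83 that ranged from -2.05 with no floor to -0.37 with the floor at the 75th percentile. Its summed signal was 8453 against 15575. Mmp8 (7.67 against 215) and Lcn2 (45.5 against 310.0), also on this list, were over the floor in the CD11b+ cells alone. Cxcr2, Elane and Mpo, which define neutrophils and their precursors, reached the floor in neither array. Csf3r, the receptor for the neutrophil growth factor, was within 2-fold at 888 against 1149. The part of neutrophils or their RNA in the ratios of S100a8 and S100a9 was not tested.

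The start regions of these genes, which were lower together, are shown for Chil3 and for the neighbours S100a8 and S100a9 on chromosome 3. Each window runs from 250 bases before to 50 bases after the annotated start in RefSeq, build GRCm38.p6, and is written from 5′ to 3′ on the strand of the gene. Capitals mark matches on either strand to GAGGAA, the core of sites bound by PU.1 and Spi-C, to the C/EBP letters TTGCNNAA or to the AP-1 letters TGANTCA.
Chil3, chr3:106167515-106167814, - strand: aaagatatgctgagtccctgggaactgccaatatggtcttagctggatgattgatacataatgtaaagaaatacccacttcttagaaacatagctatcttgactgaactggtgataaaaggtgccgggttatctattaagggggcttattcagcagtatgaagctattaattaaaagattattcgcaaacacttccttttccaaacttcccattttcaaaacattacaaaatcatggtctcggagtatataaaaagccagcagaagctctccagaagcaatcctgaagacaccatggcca
S100a8, chr3:90668821-90669120, + strand: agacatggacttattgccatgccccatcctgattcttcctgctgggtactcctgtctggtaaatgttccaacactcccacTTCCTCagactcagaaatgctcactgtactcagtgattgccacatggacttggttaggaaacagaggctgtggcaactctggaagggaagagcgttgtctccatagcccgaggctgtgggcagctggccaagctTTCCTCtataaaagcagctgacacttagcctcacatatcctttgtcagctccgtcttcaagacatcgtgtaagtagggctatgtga
S100a9, chr3:90695672-90695971, - strand: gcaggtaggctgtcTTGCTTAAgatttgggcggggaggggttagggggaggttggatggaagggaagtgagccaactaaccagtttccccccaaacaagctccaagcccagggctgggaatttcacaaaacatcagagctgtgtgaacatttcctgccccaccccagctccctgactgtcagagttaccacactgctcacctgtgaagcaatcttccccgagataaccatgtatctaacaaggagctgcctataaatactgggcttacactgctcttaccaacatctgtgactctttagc
S100a8 held GAGGAA at 2 places, S100a9 held TTGCNNAA at 1 place, and Chil3 held none of the searched letters. Of 32851 RefSeq start windows of this length, 28.3% held GAGGAA, 10.8% TTGCNNAA and 7.81% TGANTCA. Of the 60 genes at least 4-fold lower, 44 had windows, 55 in all, with shares of 32.7%, 20% and 12.7%. Of the 65 genes at least 4-fold higher, 50 had windows, 58 in all, with shares of 39.7%, 6.9% and 17.2%. A gene with several starts counts more than once. These are counts of letters and not of bound sites.

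Granulocyte and mast cell genes other than these were mostly low. Alox15, a lipoxygenase of eosinophils and some macrophages, was under the floor in the macrophages and at least 5.15-fold lower at 78.5 against 530.0. Siglecf stood at 60.2 against 203, and the eosinophil genes Epx, Prg3, Ccr3 and Il5ra reached the floor in neither array. The eosinophil list had a summed signal of 348 against 1172, with 0 of 4 members 2-fold or more above and 2 as far below. Hdc, the enzyme that makes histamine, was 8.06-fold lower at 262 against 2116. Other mast cell genes did not show this, since 9 of 12 measured ones, Cpa3, Tpsb2, Cma1, Mcpt1 and Fcer1a among them, reached the floor in neither array. Hdc was also high in the CX3CR1- cells, at 1376.

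Genes of epithelial cells had higher signals in the macrophage array, and the part of epithelial cells or their RNA in other ratios was not tested. Of 36 listed genes 35 were measured, and 27 of 32 members with a ratio lay at least 2-fold above the CD11b+ cells and 0 as far below. The median log2 ratio was 2.26, and 18 of the 65 genes called higher are on this list. With the floor at the 75th percentile the median was 1.11. Their summed signal was 45607 in the macrophages and 6077 in the CD11b+ cells, beside 12875 in CX3CR1- cells and 7866 in DCs. Lypd8, a protein of colonic surface cells that binds flagella, had the largest ratio measured on both sides of all genes, with 11122 against 444. The carbonic anhydrase Car4 stood at 3179.8 against 94.8, the chloride exchanger Slc26a3 at 660.3 against 37.8 and the keratin Krt20 at 569.8 against 31.3. These mark surface colonocytes and were under the floor in the CD11b+ cells. Markers of goblet cells measured on both sides differed less than these, with Zg16 at 961 against 281, Tff3 at 456 against 164 and Fcgbp at 259 against 121. Clca1 was only a bound, at 146 against 65.1. The keratin Krt8, found all along the epithelium, stood at 6182 against 932. The adhesion gene Epcam was present in both arrays at 1357 against 443. Fabp2, Reg3g and Cdx1 were under the floor in both. Saa1, an acute-phase apolipoprotein, had the largest bound of all, at least 69.3-fold at 7125 against 70.2, and a second probe set gave 3813 against 25.2. Its relatives were lower in signal, with Saa2 at 299 against 53.9, and the macrophage form Saa3 was within 2-fold at 645 against 849.8.

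Fibroblast genes went the other way. All 22 listed genes had a ratio and each was at least 2-fold lower in the macrophages, at a median log2 ratio of -1.97. Summed signals were 27644 in the macrophages and 106642 in the CD11b+ cells, beside 37583 in CX3CR1- cells and 8349.7 in DCs. The collagen Col3a1 stood at 6261 against 28325, the proteoglycan Dcn at 4005 against 15299 and the receptor Pdgfra at 120.0 against 576. No member was under the floor in the CD11b+ cells. Of the 60 genes called lower, 11 are on this list. Other called genes known from fibroblasts but not on the list, picked here after their values were seen except Cxcl12, were Mgp (1341 against 7126), Cxcl12 (1054 against 4694, but 324 against 295 by another probe set), Tcf21 (510.3 against 2150.2) and Clec3b (278 against 1495). In bulk signals fewer cells of a type and less RNA per cell cannot be told apart, and the part of fibroblasts or their RNA in other ratios was not tested. Vessel, muscle and glial genes were not part of this pattern, with 2 of 11 members 2-fold or more above and 0 as far below. Those above were Lyve1, also counted among macrophage genes, and Emcn, a bound at 209 against 80.7. The muscle gene Acta2 stood at 1558 against 1920.4 and the vessel gene Pecam1 at 156 against 187.

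Among genes of myeloid transcription factors few differed. On the list of 50 genes 2 of 41 members with a ratio lay at least 2-fold above the CD11b+ cells and 4 as far below, shares close to those over all genes. Spic, which encodes the ETS factor Spi-C that is needed for iron-recycling macrophages of the spleen and that the series is about, had the highest ratio. Its chosen probe set gave 936 in the macrophages and 239 in the CD11b+ cells, with 102 in CX3CR1- cells and 29.2 in DCs. The second set gave 2163 against 464. Tfec, a relative of Mitf found in macrophages, was over the floor only in the macrophages (227 against 67.1). Nfe2, a factor of blood cell precursors, was at least 5.05-fold lower at 32.0 against 519. Bhlhe40 was 2.44-fold lower at 2205 against 5386, the inhibitor gene Id3 2.38-fold at 1314 against 3123, and the nuclear receptor Nr4a2 2.10-fold at 413 against 867. Within 2-fold and lower in the macrophages were, among others, Cebpb (13589.7 against 22615), Klf2 (1509 against 2693) and Nr4a1 (4651 against 8512). Cebpa (1045 against 587), Irf8 (3272 against 2322) and Irf4 (703 against 495) lay within 2-fold and higher. Runx1 cannot be read, because its 5 probe sets disagreed, with the used set at 1341 against 749 and another at 204 against 446.

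The start region of Spic is shown because the gene leads this group.
Spic, chr10:88682974-88683273, - strand: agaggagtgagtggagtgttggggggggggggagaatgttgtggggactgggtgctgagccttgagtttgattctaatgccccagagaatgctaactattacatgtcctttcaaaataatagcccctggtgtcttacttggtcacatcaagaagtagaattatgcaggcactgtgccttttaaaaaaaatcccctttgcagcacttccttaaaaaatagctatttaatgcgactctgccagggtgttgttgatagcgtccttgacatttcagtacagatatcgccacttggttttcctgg
It held none of the 3 motifs.

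Heme and iron genes were in part higher. Of 26 listed genes 25 were measured, and 8 of 22 members with a ratio lay at least 2-fold above the CD11b+ cells and 1 as far below, with a median log2 ratio of 0.55, or 0.32 to 0.88 over the processing alternatives. Slc40a1, which encodes ferroportin, the exporter of iron, had signals of 2422 in the macrophages and 306 in the CD11b+ cells, with 354 in CX3CR1- cells and 83.3 in DCs. It was highest in the macrophages by a wide margin and under the floor in the DCs. Hmox1, the oxygenase that opens the heme ring, stood at 10772 against 2861, and the next enzyme Blvrb at 2947 against 885, while its relative Blvra was within 2-fold at 1228 against 666. Aco1, an iron-sensing aconitase, was 2.39-fold higher, and Hfe, a regulator of iron uptake, 2.25-fold at 1983 against 881. The 8 also include the transcription factor gene Spic, the adhesion gene Vcam1 and the macrophage gene Cd163, which are counted on other lists here too. Import and storage genes within 2-fold included the transferrin receptor Tfrc (1285 against 1045), the metal transporter Slc11a1 (6571 against 6516) and ferritin Fth1 (39180.1 against 47022). Slc11a2, a relative of Slc11a1, was within 2-fold and higher at 1191 against 670, and the hemoglobin receptor Cd163 was 3.75-fold higher. Lcn2, which binds bacterial iron carriers and is also a neutrophil gene, was lower at 45.5 against 310.0.

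Chemokine genes had the highest share of higher members among the 24 functional lists plotted. Of 18 CCL genes 17 were measured, and 7 of 13 members with a ratio lay at least 2-fold above the CD11b+ cells and 1 as far below. The median log2 ratio was 1.0. On chromosome 11 in RefSeq GRCm38.p6 the genes Ccl2, Ccl7, Ccl11, Ccl12 and Ccl8 lie side by side in this order, with 0 protein-coding genes between neighbours. Ccl8 had signals of 19869 in the macrophages and 2326 in the CD11b+ cells, with 895 in CX3CR1- cells and 163 in DCs, and Ccl7 had 17991, 3673, 874 and 129 in the same order. Ccl2, the main ligand of CCR2, was 3.41-fold higher at 18214 against 5338, and Ccl12, another CCR2 ligand, 4.32-fold at 3031 against 701. The gene in the middle differed the opposite way. Ccl11, which attracts eosinophils and is known from fibroblasts, whose listed genes were lower too, was 6.02-fold lower at 306 against 1844. Ccl4 (8509 against 2189) and Ccl3 (9278 against 3518) were higher too, while Ccl9 and Ccl6 (9815 against 17173) were within 2-fold. The CXC chemokines had 2 of 11 members 2-fold or more above and 1 as far below. Pf4, platelet factor 4, stood at 24576 against 8661, and the neutrophil attractants Cxcl2 (31316 against 22226) and Cxcl1 (9230.3 against 7526) were within 2-fold. Cxcl12 was the lower one.

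The start regions of Ccl8 and Ccl12, the neighbours at 1 end of the cluster, are shown because both genes were at least 4-fold higher. Capitals and source are as above.
Ccl8, chr11:82114935-82115234, + strand: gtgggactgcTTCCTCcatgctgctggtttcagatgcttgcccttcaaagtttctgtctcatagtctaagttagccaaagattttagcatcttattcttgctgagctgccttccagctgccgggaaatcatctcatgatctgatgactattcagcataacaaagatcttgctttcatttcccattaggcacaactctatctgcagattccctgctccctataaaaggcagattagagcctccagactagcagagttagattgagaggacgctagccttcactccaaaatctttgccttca
Ccl12, chr11:82101595-82101894, + strand: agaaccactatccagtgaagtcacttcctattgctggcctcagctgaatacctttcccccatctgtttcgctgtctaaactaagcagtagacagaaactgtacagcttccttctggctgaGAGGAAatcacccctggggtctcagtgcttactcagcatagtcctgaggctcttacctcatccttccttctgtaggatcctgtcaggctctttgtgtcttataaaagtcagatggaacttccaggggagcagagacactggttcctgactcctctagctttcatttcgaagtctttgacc
Each held GAGGAA on 1 strand or the other at 1 place and neither of the other motifs.

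**Figure D3:**
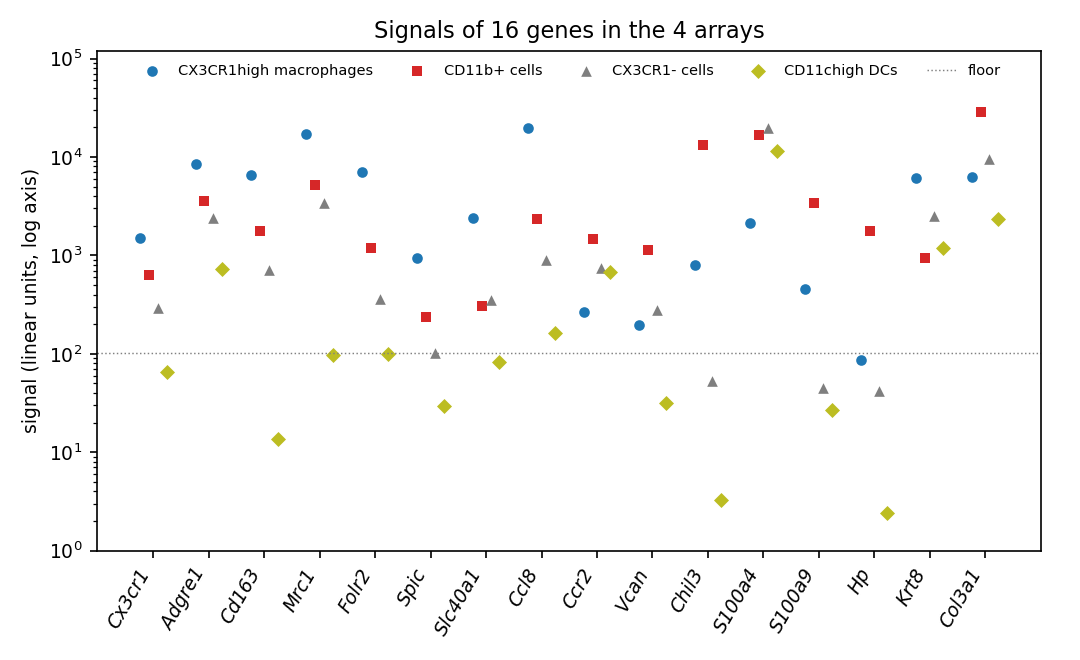
Signals of 16 genes named in the text in the 4 arrays of the series, in linear units on a log axis, 1 point per array. The dotted line is the floor of 103. Macrophage genes such as Cd163 and Folr2 are highest in the CX3CR1high macrophages, and Ccr2, Vcan, Chil3, S100a9 and Hp are highest in the CD11b+ cells.

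Receptors for attractants lay on both sides, as Cx3cr1 and Ccr2 do. On this list 4 of 14 members with a ratio lay at least 2-fold above the CD11b+ cells and 2 as far below, with a median log2 ratio of 0.59. Cx3cr1 is among the 4, and its ratio is not independent of the sort. P2ry12, a receptor for ADP known from microglia, was over the floor in the macrophages and under it in the CD11b+ cells (525 against 95.9). C3ar1, the receptor for complement C3a, was 2.49-fold higher at 5610.2 against 2251, and Ccrl2, which binds chemerin, 2.02-fold at 4038 against 2001. Ltb4r1, the receptor for leukotriene B4, was at least 4.04-fold lower at 48.0 against 415. Ccr1 (8991 against 5186) and Cxcr4 (4027 against 5884) were within 2-fold.

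Cytokine genes were mixed. On this list 2 of 15 members with a ratio lay at least 2-fold above the CD11b+ cells and 1 as far below. Il10, the cytokine that restrains macrophages, had signals of 7028 in the macrophages and 2548 in the CD11b+ cells, with 3003 in CX3CR1- cells and 267 in DCs. Tnf was 2.10-fold higher at 2740.2 against 1305, and Il6 was 2.13-fold lower at 2846 against 6067. Il1b was within 2-fold at 19111 against 32352, as was its antagonist Il1rn at 7231 against 6379.6. Il12a, Il12b and Il23a were under the floor in both arrays. Growth factor genes differed more often, with 5 of 14 members 2-fold or more above and 3 as far below and a median log2 ratio of 0.78. The platelet-derived growth factors Pdgfc (1225 against 236) and Pdgfa (3916 against 1594) were higher, as were the EGF-type ligand Hbegf (2917 against 1007) and placental growth factor Pgf (2389 against 786). Csf1 (363 against 886), Ereg (549 against 1415) and Wnt4 were lower. Receptors for growth factors and cytokines had 0 of 28 members 2-fold or more above and 1 as far below, namely the IL-6 receptor Il6ra at 327 against 1085. In the TNF family, Ltb, which encodes lymphotoxin beta, was 7.94-fold lower at 107 against 846, and of the other members only Tnf reached 2-fold among 17 with a ratio.

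Genes that detect antibody-coated and complement-coated particles were higher in part. Among Fc receptors 4 of 9 members with a ratio lay at least 2-fold above the CD11b+ cells and 0 as far below, with a median log2 ratio of 0.89. Fcgr4, an activating IgG receptor, stood at 4587 against 2058, Fcgrt, which saves IgG from breakdown, at 3723 against 1151, and the orphan relative Fcrls at 5864 against 1322. The fourth, Pigr (882 against 172), transports IgA across epithelium and is known as an epithelial gene. Fcgr3 (11992 against 7760.1), the inhibitory Fcgr2b (15901 against 8574) and the shared chain Fcer1g (18941 against 16653) were within 2-fold. In the complement list 5 of 20 members with a ratio lay at least 2-fold above the CD11b+ cells and 3 as far below. Of the chains of C1q, C1qa was 2.37-fold higher (28998 against 12245) and C1qc 2.04-fold (19587 against 9579). C1qb was within 2-fold, at 1.63-fold higher (25663 against 15709.8). C6 was over the floor in the macrophages alone (339 against 34.1). The lower ones were the C1 proteases C1ra and C1s1 (512 against 2031) and the inhibitor Serping1 (1036 against 3938), which are known from fibroblasts.

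C-type lectins, which bind sugars on microbes and on host proteins, were split. On this list 6 of 17 members with a ratio lay at least 2-fold above the CD11b+ cells and 1 as far below, with a median log2 ratio of 0.54. Cd209f had signals of 1753 in the macrophages and 259 in the CD11b+ cells, with 113 in CX3CR1- cells and 69.0 in DCs. Cd209g was over the floor only in the macrophages, whereas Cd209a, the DC-SIGN relative of DCs, was within 2-fold at 542 against 373 and highest in the CX3CR1- cells at 2603. Clec4n, which encodes Dectin-2, was 2.95-fold higher at 8169.7 against 2766, and the galactose lectin Mgl2 2.38-fold at 2291 against 963. Clec4e, which encodes Mincle, was 3.98-fold lower at 2745 against 10918, while its neighbour in function Clec4d was alike at 7478 against 7782. Clec7a, Dectin-1, was within 2-fold at 9272 against 10648. Genes of pattern recognition were alike, with 1 of 18 members 2-fold or more above and 0 as far below. The member above was Tlr7, a sensor of single-stranded RNA, at 864 against 275, while its other probe sets gave 188 against 131 and 211 against 138. Tlr2 (6086 against 4658), Tlr4 (395 against 366), their coreceptor Cd14 (27527 against 34228) and the adaptor Myd88 (1347 against 1919) were within 2-fold.

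Uptake of dying cells had members on both sides. On this list 5 of 23 members with a ratio lay at least 2-fold above the CD11b+ cells and 5 as far below, with a median log2 ratio of 0.43. The scavenger receptor Cd36 stood at 4876 against 1488, Trem2, a lipid receptor, at 1344 against 428 and Stab1, which binds phosphatidylserine, at 6849 against 2714. Cd300lf, which also binds phosphatidylserine, was 8.80-fold lower at 254 against 2233 and was highest in the CX3CR1- cells (3224). Thrombospondin Thbs1 (7048 against 15215), the transglutaminase Tgm2 (6322 against 13662) and the bridging protein Mfge8 (476 against 953) were lower. Lipid genes had 5 of 26 members 2-fold or more above and 3 as far below. Npl, a lyase that breaks down sialic acid and that was placed on this list, stood at 3085 against 324, and Gpnmb, a glycoprotein of lipid-laden macrophages, at 3822 against 623. Apoe (36172 against 26335), the sterol exporter Abca1 (10738 against 7554) and the droplet coat Plin2 (11254 against 9079.7) were within 2-fold. The triglyceride enzymes Dgat1 (1415 against 3372) and Dgat2 (406 against 913) were lower.

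Lysosomal genes leaned toward the macrophages, mostly by less than 2-fold. On this list 4 of 27 members with a ratio lay at least 2-fold above the CD11b+ cells and 0 as far below, with a median log2 ratio of 0.35. Acp5, an acid phosphatase of osteoclasts and macrophages, was 4.69-fold higher at 4425 against 944. The ceramidase Asah1 stood at 8915 against 3662, the peptidase Tpp1 at 4978 against 2219 and the cholesterol transporter Npc1 at 1025 against 486. Cathepsins and related genes had 1 of 16 members 2-fold or more above and 2 as far below. Ctsl was 2.07-fold higher at 18555 against 8953, and Napsa, an aspartic protease, 4.84-fold lower at 352 against 1703, with 4207 in CX3CR1- cells and 5582 in the DCs. Ctsb (30549.6 against 28276), Ctsd (8692 against 5918) and Ctss (22509 against 20503) were within 2-fold.

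Genes of antigen presentation were alike. MHC class II genes had 1 of 8 members 2-fold or more above and 0 as far below. H2-Aa stood at 31256 against 24996, H2-Ab1 at 29086 against 38204 and the invariant chain Cd74 at 29845 against 34502. These signals lay near the top of the arrays, whose highest signals outside the controls were 44238 and 64755. The exception was H2-DMb2, a chain of the peptide editor H2-DM, which was over the floor only in the macrophages (338 against 90.3) but far higher in the DCs (3237). None of 15 genes of class I presentation with a ratio reached 2-fold. Costimulatory genes had 3 of 19 members 2-fold or more above and 0 as far below. Those above were Cd48 (2327 against 873), a ligand of CD2-type receptors, the inhibitory receptor Cd200r1 (236 against 69.5) and Cd276 (312 against 151). Cd86 (5348 against 4282), Cd40 (2343 against 1809.5) and Cd274 (3660.0 against 2098), which encodes PD-L1, were within 2-fold. Migratory DC genes had 1 of 15 members 2-fold or more above and 0 as far below, and Ccr7 stood at 576 against 397, far under its signals in CX3CR1- cells (7927) and DCs (8091). Among CD103-type DC genes Cadm1, an adhesion molecule, was 4.16-fold higher at 1231 against 296, and Cd24a, also known from neutrophils and epithelium, 2.95-fold lower at 1469 against 4332. Xcr1, Itgae and Tlr3 were under the floor in both arrays.

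Genes of eicosanoids, the lipid mediators made from arachidonic acid, lay on both sides. On this list 6 of 20 members with a ratio lay at least 2-fold above the CD11b+ cells and 3 as far below, with a median log2 ratio of 0.09. Besides Hpgds, the higher members included Hpgd, which breaks prostaglandins down, at 2059 against 616. Ltc4s, the synthase of leukotriene C4, was 4.60-fold higher at 2686 against 584, and Cysltr1, a receptor for its products, 2.26-fold at 285 against 126. Alox15 and the receptors Ltb4r1 and Ptger2 were lower. Ptgs2, cyclooxygenase 2, was within 2-fold at 3424 against 4735, and Alox5ap was just within it at 5265 against 10083.

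Genes that act on clots and matrix were lower more often than higher. In the coagulation list 1 of 19 members with a ratio lay at least 2-fold above the CD11b+ cells and 6 as far below. Plau, which encodes urokinase, was 4.68-fold higher at 683 against 146, and the crosslinking factor F13a1 was within 2-fold at 15238 against 8148. Clotting factor V, F5, was 5.45-fold lower at 212 against 1156, and the thrombin receptor F2r 2.16-fold at 1234 against 2661. Anxa2, a plasminogen receptor, was lower at 6933 against 13886, but the mean over its probe sets, of which 1 lay under the floor in both arrays at 21.2 against 1.71, gave a log2 ratio of 0.75 in the opposite direction. Matrix proteases and their inhibitors had 3 of 17 members 2-fold or more above and 6 as far below. Mmp13, a collagenase, had signals of 8835 in the macrophages and 1250.2 in the CD11b+ cells, with 8837 in CX3CR1- cells and 723 in DCs. The macrophages and the CX3CR1- cells were alike and far above the others. Mmp12, macrophage elastase, stood at 434 against 107, and the inhibitor Timp2 at 5904 against 2484. Adamdec1, a protease-like gene of gut macrophages and fibroblasts, was 3.76-fold lower at 6956 against 26185, as were Mmp2 (557 against 1387) and Adam8 (2961 against 6277).

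Adhesion genes differed in few members. The list had 3 of 27 members 2-fold or more above and 2 as far below. Those above were Itga9 (736 against 203), Vcam1 (7843 against 2661) and Cd81. Itgb7, the beta chain of gut-homing integrins, was 4.30-fold lower at 262 against 1126, and Itgal 2.07-fold at 114 against 235. S100 proteins and annexins had 1 of 15 members 2-fold or more above and 5 as far below. S100a6 joined S100a4, S100a8 and S100a9 at 5481 against 12078, and Anxa3 was 2.27-fold higher at 2217 against 978.

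Genes induced by interferon had 2 of 23 members 2-fold or more above and 0 as far below, with a median log2 ratio of 0.30, or 0.17 to 0.64 over the alternatives. Oasl1 stood at 2929 against 799.8 and Ifit2 at 557 against 183, while Irf7 was within 2-fold and lower (552 against 1025). Genes of the IL-10 response and regulators of Toll-like receptors had 3 of 21 members 2-fold or more above and 0 as far below, namely Tnfaip3 (339 against 122), Il10 and Cd200r1. Both chains of the IL-10 receptor were within 2-fold, with Il10ra at 862 against 1326 and Il10rb at 5331 against 4700.5. Immediate early genes, which are also known to be induced when tissue is digested, had 0 of 26 members 2-fold or more above and 2 as far below, with a median of -0.34 and Fos at 19104 against 26715. Retinoic acid and TGF-beta genes had 0 of 24 members 2-fold or more above and 6 as far below, with a median of -0.58, or -0.69 to -0.19 over the alternatives. Ltbp1 (109 against 419), Rarg and Aldh1a3 were among the lower ones, and Tgfbi was within 2-fold at 14247 against 19618. Polarization genes had 5 of 18 members 2-fold or more above and 4 as far below. Retnla was alike at 11955 against 13508, Acod1, which makes itaconate, was 3.01-fold lower at 1092 against 3289, and Arg2 2.73-fold at 416 against 1134. Arg1 and Nos2 were under the floor in both arrays.

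**Figure D4:**
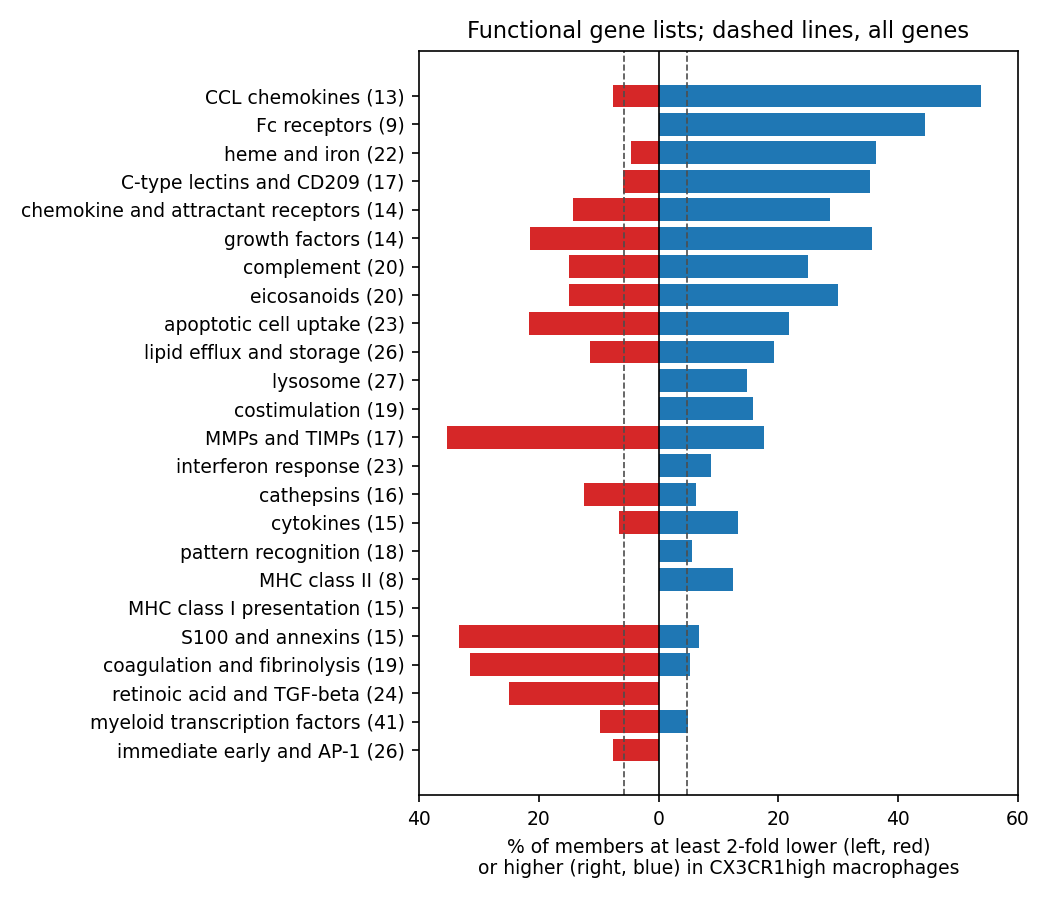
Share of members with a ratio that were at least 2-fold lower (left, red) or higher (right, blue) in macrophages than in CD11b+ cells, for 24 functional lists, with the number of members with a ratio in brackets. Dashed lines mark the shares over all 7512 genes, 5.83% lower and 4.66% higher. Among CCL chemokines 7 of 13 were higher, and among coagulation genes 6 of 19 were lower.

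Of the genes called at 4-fold, 23 higher and 24 lower ones are on none of the lists. Several of the higher ones are known from gut epithelium, among them Muc13 (1208 against 256), Cdhr5 (496 against 5.52) and Dsg2 (492 against 102), picked after their values were seen. Those with the most extreme ratios were Sycn (at least 36.1-fold at 3711 against 92.9), known from exocrine and gut epithelial granules, and Tspan1 (8.31-fold at 865 against 104). Myo15b, Tmem45b and Prss30 were further bounds, at 868 against 102, 756 against 89.8 and 660.1 against 4.22. The lower ones with the most extreme ratios were the imprinted RNA gene Meg3 (126 against 787), the protease inhibitor Serpina3n (188 against 1147) and the glycosyltransferase B3gnt5 (385 against 2301), and the only bound among them was Trem3 (99.2 against 459). Chosen after their values were seen, Gpr34 (860.3 against 188), a lysophospholipid receptor of microglia, and Cd22 (1089 against 239), a sialic acid receptor known from B cells, were higher. Lsp1 (847 against 4535), an actin-binding protein of leukocytes, and the Src-family kinase Fgr (358 against 1531) were lower, and for Lsp1 the macrophages had the lowest signal of the 4 arrays, with 8296 in CX3CR1- cells and 14101 in the DCs.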

How the data were processed

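Per the labels' protocols, RNA of 4 sorted myeloid populations was hybridised to Affymetrix 3′ arrays. Per the submitters' processing notes, MAS5 (version not given) produced the intensity signals that the authors deposited, on a linear scale. With 2% trimmed from each end, they averaged 500 on both arrays. No further normalization was applied. Scanner files and detection calls were not used here.

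Of 22690 probe sets, 64 were controls, 691 named several genes and 1555 none in the platform's probe table. Each gene was read by its brightest probe set (mean log2 signal over the 4 arrays), sets ending in _x_at last. Of the genes' Entrez numbers 99.8% were found in RefSeq GRCm38.p6, and 0 symbols changed. Named genes are members of 56 lists and, per direction, the 15 largest measured ratios and the 10 largest bounds, leaving out genes whose probe sets oppose and provisional names; others are marked as chosen after their values were seen. Members and lists were chosen with earlier results of these data known. The code that calls genes was run on simulated data with known changes, which says nothing about spread between mice, sorts or hybridisations. The 8 alternatives were run, with Python 3.11.15, numpy 2.4.6 and pandas 2.3.3.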

Additional observations from a re-analysis of the deposited data

How the results depend on the processing

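The number of genes called depended on the floor. For 4-fold higher and 4-fold lower genes the counts were 65 and 60 with the floor at the pooled median. They were 156 and 112 with the floor at the pooled 25th percentile, 22 and 27 at the 75th and 606 and 634 with no floor. A pseudocount at the 25th percentile in place of a floor gave 117 higher and 69 lower. For 2-fold higher and lower genes the main counts of 350 and 438 became 708 and 827, 150 and 170, 1501 and 1717, and with the pseudocount 602 and 713. Fewer or more genes tested are part of this by construction, with 10467, 4044 and 12393 genes having a ratio. Quantile normalization, equal medians, the mean over probe sets and leaving out shared probe sets kept all 4 counts within 1.5 times. The median of all genes moved by less than 0.1 on the log2 scale under each setting.

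No gene called at 4-fold changed direction under any of the 8 alternatives that gave it a ratio. With the mean over probe sets, 3 of the genes at least 2-fold higher and 2 of those at least 2-fold lower took the opposite sign, and no such gene did under the other alternatives. Of 447 values for list medians 428 moved by less than the SD between probe sets, 19 moved further and 0 with a main median beyond that SD changed sign. Of 1759 values for 231 named genes 1574 stayed within that SD, 184 moved further and 1 reversed, which was Anxa2, at 0.75 with the mean over its probe sets. Low signals limit the lists of eosinophil and mast cell genes most, with 4 and 3 members having a ratio. No paired analysis was possible because each population has 1 array.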

Other observations

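Genes of basic metabolism were nearly level between the populations. Of 76 genes of the respiratory chain and ATP synthase with a ratio, 0 reached 2-fold in either direction, and their median log2 ratio was 0.08. Of 45 proteasome genes with a ratio, Psmd7 was the 1 that was at least 2-fold higher (569 against 235, but 129 against 153 by another probe set) and 0 were lower. Ribosomal protein genes leaned toward the CD11b+ cells, with a median of -0.29 over 41 genes, and Rpl39 (127 against 277) was the 1 at least 2-fold lower. Glycolysis genes had 0 of 20 members 2-fold or more above and 1 as far below, the member below being the glucose transporter Slc2a3 at 420.3 against 1127. Among 26 genes of antioxidant defence with a ratio, 3 were lower, namely the cystine transporter Slc7a11 (210.4 against 487), Gsr (685 against 1648) and Gstt1 (145 against 499). Heat shock genes had 0 of 19 members 2-fold or more above and 1 as far below, namely Hspb8.

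Of 16 cell cycle genes with a ratio, Dna2 (102 against 510.2) alone reached 2-fold, while 13 of 29 measured members reached the floor in neither array. Mki67 stood at 978 against 1098. B and plasma cell transcripts were present in both arrays, with the joining chain Jchain at 18478 against 34144 and Ighm at 3266 against 4468. Pou2af1 (294 against 921) and Sdc1 (487 against 1314), genes of plasma cells, were the 2 lower ones on that list. Cd3e, Cd3d and Cd3g, which define T cells, reached the floor in neither array, whereas Cd4, which gut macrophages can also express, was over it in the CX3CR1high macrophages alone (286 against 26.9).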
